A study of Mus musculus with 6 samples.

Results

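The genes described here code for molecular chaperones, the proteins that help other proteins fold, and for the enzymes and adaptors that work beside them. They were chosen by name. A gene was taken when the platform annotation gave it as the single symbol of a probe set and the symbol belonged to the heat shock families (Hspa, Hspb, Hspd, Hspe, Hsph and Hsp90), the Dnaj family, the Pdia family or the Cct2 to Cct8 series, and Tcp1 and Calr were added. The choice gave 88 of the 18193 genes that had a probe set of their own. Where a gene had several probe sets, the brightest one gave its value. By textbook location, 58 were placed in the cytosol and nucleus, 18 in the endoplasmic reticulum (ER) and 8 in mitochondria, and 4 were placed nowhere.

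The study measured gene expression in bone marrow macrophages from wild-type (WT) and knockin (KI) C57BL/6 mice, with 3 arrays of each genotype. Its title concerns the IVVY motif of RANK, the receptor through which the cytokine RANKL turns macrophage precursors into bone-resorbing osteoclasts, and the comparison asks which genes of that conversion depend on the motif. The labels call the KI genotype a knockin mutant and do not describe the altered residues, and they give no age or sex. Cells of both genotypes were cultured for 24 hours with the growth factor M-CSF at 44 ng/ml and with RANKL at 100 ng/ml, so all 6 arrays are of RANKL-treated cells. Labelled RNA was hybridised to Affymetrix mouse expression arrays, which read the 3′ ends of transcripts. Nothing in the labels says that the replicates came from separate animals or cultures, so the p-values measure the spread between these samples, which may be technical.

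Chaperones of the HSP70 family bind short hydrophobic stretches of unfolded protein and release them on a cycle of ATP hydrolysis, which J proteins (the Dnaj genes) start and nucleotide exchange factors end. HSP90 acts later on near-native clients such as kinases and steroid receptors. The CCT ring, also called TRiC, encloses actin, tubulin and other proteins as they fold, and the HSP60 and HSP10 pair does the same in mitochondria. In the ER, BiP (Hspa5), GRP94 (Hsp90b1), the lectin calreticulin (Calr) and the disulfide isomerases (Pdia genes) fold secreted and membrane proteins. The cytosolic and ER systems are known to be induced by separate programmes, the heat shock response through the factor HSF1 and the unfolded protein response through ATF6, XBP1 and ATF4.

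The arrays were even in median intensity and in 3′ to 5′ ratios, and uneven in the 18S control and the hybridisation spike-ins. Array medians of the intensity ran from 83.0 to 84.8, and the ratio of 3′ to 5′ signal lay between 0.927 and 0.972 for Gapdh and between 1.12 and 1.14 for Actb. The 18S ribosomal control probe set read 2698 on WT 1 and 1286 to 1541 on the other arrays. The hybridisation spike-ins, as log2 minus the mean over arrays, read -0.187, -0.0517 and -0.0709 in WT and 0.179, 0.0221 and 0.108 in KI. The older spike-in probe sets read -0.355, 0.0798 and -0.52 in WT and 0.336, 0.177 and 0.282 in KI. Both sets were thus higher on every KI array than on any WT array. Of 9 macrophage markers, 7 were higher in KI and 0 lower, and their summed intensity was 95600 to 125000 in WT and 161000 to 172000 in KI. Of 10 early osteoclast markers, 7 were lower and 0 higher, with sums of 70500 to 81100 in WT and 32700 to 36500 in KI, and Calcr lay near the floor. Neutrophil markers summed to 16000 to 20000 in WT and 22300 to 43900 in KI, where KI 1 was highest, and erythroid and megakaryocyte markers summed to 2480 to 3380 in WT and 7480 to 9160 in KI, with Pf4 as the 1 of 6 that passed. The part of these markers in the chaperone results was not tested, and in bulk samples fewer cells of a type and less RNA per cell cannot be told apart.

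Of the promoters, 2 kinds of sequence are shown first, since the heat shock and ER programmes are known to act through different DNA elements. The printed promoters all hold such letters, which many other chaperone promoters lack, and the part of these elements in the results was not tested. The sequences are the 250 bases before the annotated start of the gene in RefSeq (build GRCm38.p6), written 5′ to 3′ on the strand of the gene. Of the 88 chaperone genes, 74 had an entry. For Hspa1b, the stress-inducible HSP70, and Hspe1, the mitochondrial HSP10, capitals mark letters of the heat shock element, the inverted repeats of GAA that HSF1 binds. The Hspe1 stretch includes the element of 3 units, whereas in that of Hspa1b the search matched 2 units. The search took exact letters only, so any further unit with a mismatch was not counted. For Hspa5, Hsp90b1 and Calr, capitals mark the ER stress element, which ATF6 binds with NF-Y.
Hspa1b, chr17:34959239-34959488, minus strand: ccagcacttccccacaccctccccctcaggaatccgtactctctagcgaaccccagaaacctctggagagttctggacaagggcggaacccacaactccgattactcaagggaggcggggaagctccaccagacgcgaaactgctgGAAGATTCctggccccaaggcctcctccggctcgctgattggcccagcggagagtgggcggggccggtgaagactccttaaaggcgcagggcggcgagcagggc
Hspe1, chr1:55087898-55088147, plus strand: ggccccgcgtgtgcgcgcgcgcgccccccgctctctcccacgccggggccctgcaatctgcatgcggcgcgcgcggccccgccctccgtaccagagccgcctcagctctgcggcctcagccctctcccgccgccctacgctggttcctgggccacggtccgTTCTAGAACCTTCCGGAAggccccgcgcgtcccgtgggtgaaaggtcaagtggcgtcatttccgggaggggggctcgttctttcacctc
Hspa5, chr2:34771840-34772089, plus strand: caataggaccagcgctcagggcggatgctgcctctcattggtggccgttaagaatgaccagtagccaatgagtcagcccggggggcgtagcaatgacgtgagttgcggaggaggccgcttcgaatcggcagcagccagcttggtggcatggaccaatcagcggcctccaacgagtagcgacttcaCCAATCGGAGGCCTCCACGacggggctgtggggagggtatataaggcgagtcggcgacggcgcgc
Hsp90b1, chr10:86705445-86705694, minus strand: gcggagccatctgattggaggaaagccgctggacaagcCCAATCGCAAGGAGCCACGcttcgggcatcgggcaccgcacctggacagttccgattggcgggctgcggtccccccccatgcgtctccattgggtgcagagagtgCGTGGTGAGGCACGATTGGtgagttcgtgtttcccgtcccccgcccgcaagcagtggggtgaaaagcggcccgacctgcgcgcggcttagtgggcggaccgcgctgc
Calr, chr8:84846932-84847181, minus strand: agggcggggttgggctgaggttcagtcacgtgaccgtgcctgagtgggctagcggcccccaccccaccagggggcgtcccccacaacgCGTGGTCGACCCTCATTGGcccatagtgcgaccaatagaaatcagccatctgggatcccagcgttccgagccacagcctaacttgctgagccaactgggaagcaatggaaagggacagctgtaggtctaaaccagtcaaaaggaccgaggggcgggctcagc

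The letters were searched on both strands of each 250-base window. The ER stress element, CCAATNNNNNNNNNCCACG, was present in 5 of the 74 chaperone promoters, which were those of Hspa5, Hsp90b1 with 2 matches, Calr, Pdia6 and Dnajc3. All 5 genes belong to the ER group, and 0.132% of the 14368 promoters of genes on the array held these letters. The heat shock element of 3 units, GAANNTTCNNGAA, was present in Hspd1, Hspe1 and Dnajb6, which makes 3 of 74 against 0.487% of promoters of array genes. Hspd1 and Hspe1 lie head to head and most bases of their windows are shared, so that both matches are the same bases. The shorter letters GAANNTTC, which the element of 3 units contains, occurred in 13 of 74 chaperone promoters and in 6.6% of promoters of array genes. The other order of 2 units, TTCNNGAA, occurred in 7 of 74, or 9.46%, and in 7.49% of promoters of array genes. Hspa1a and Hspa1b have windows that are identical at 247 of 250 bases, and both hold GAANNTTC between 104 and 97 bases before the start. Such a match describes the letters and shows no binding.

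Across the whole set, KI arrays had lower signal than WT arrays for many cytosolic and mitochondrial chaperones and for few ER chaperones. Of the 88 genes, 28 were lower in KI, 7 were higher and 53 did not pass (limma, adjusted p under 0.05 by Benjamini-Hochberg over all genes). In the same comparison 26.8% of all genes were called, 14.9% as lower and 11.9% as higher, so the share of chaperone genes that were lower, 31.8%, was above that of all genes and the share that were higher, 7.95%, was below it. The median log2 difference, KI minus WT, was -0.12 over the chaperone genes and -0.00129 over all genes. The WT and KI arrays did not overlap for 46 of the 88 genes, 37 of them lower and 9 higher, against 45.2% of all genes, of which 24.7% were lower and 20.5% higher in the same sense. Brighter genes were called more often on these arrays: among genes with a mean log2 intensity of 10 or more, 27.1% were lower and 22.2% higher, and among the 49 chaperone genes above that level 22 were lower, or 44.9%, and 3 were higher. The arrays did not overlap for 3748 of all 5119 genes at that level, 2098 lower and 1650 higher. Of the 49 chaperone genes, they did not overlap for 33, 29 lower and 4 higher.

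**Figure D1:**
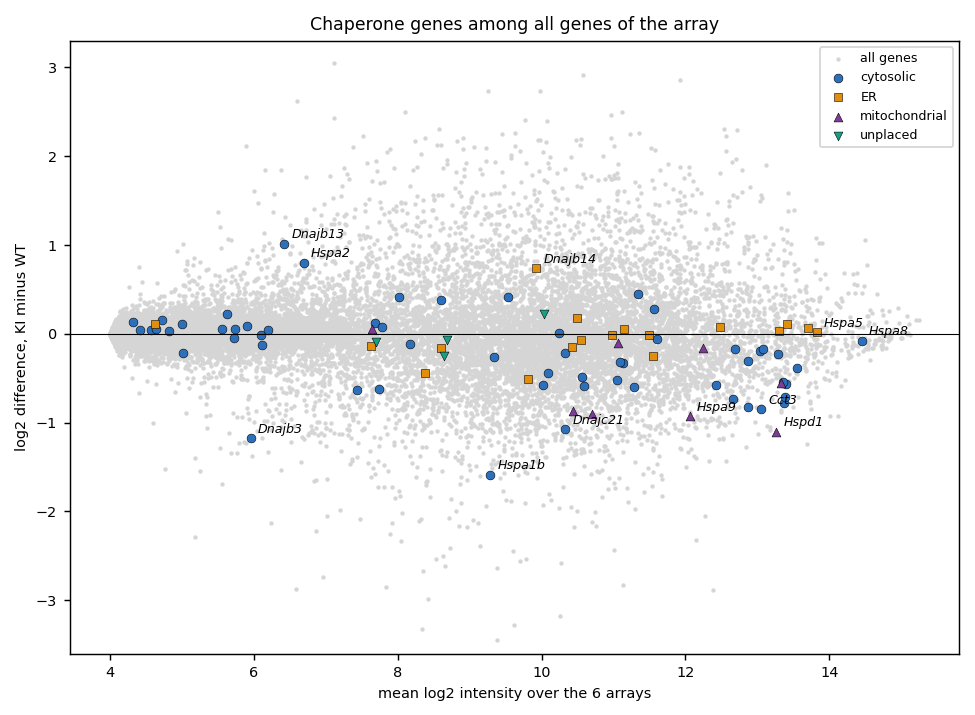
Mean log2 intensity over the 6 arrays (horizontal) against the log2 difference, KI minus WT (vertical), for all 18193 genes in grey and for the 88 chaperone genes by compartment. Mitochondrial genes lie mostly below 0, ER genes lie on both sides of it, and Hspa1b is the lowest chaperone gene at -1.59.

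The compartments differed in how many of their members passed. As the background, 14.9% of all genes were lower and 11.9% higher, and of bright genes, those with a mean log2 intensity of 10 or more, 27.1% were lower and 22.2% higher. By unadjusted p under 0.05 in limma, 3856 of all 18193 genes were lower and 3243 higher. In the cytosolic group 21 of 58 were lower, or 36.2%, and 5 higher, or 8.62%, with a median of -0.17, and among its 29 bright genes 17 were lower, or 58.6%, and 2 higher. In the mitochondrial group 5 of 8 were lower, all of them among its 7 bright genes, and 0 higher, with a median of -0.71, and by unadjusted p under 0.05 the group had 6 genes, all with negative differences. In the ER group 1 of 18 was lower and 1 higher, with a median of 0.00135, and these 2 were also the only ER genes with an unadjusted p under 0.05 in limma, so that 0 of the 12 bright ER genes passed by either p. Without both arrays numbered 1, the ER group had 4 higher genes in place of 1. The 4 genes placed nowhere had Dnajc18 as lower and Dnajc4 as higher. No test of the difference between compartments was made, because the genes of a compartment are not replicates. Scaling the arrays to the hybridisation spike-ins moved the median of all genes to -0.199, and to -0.515 with the older spike-in probe sets. The mitochondrial median then became -0.916 and -1.24, the cytosolic median -0.374 and -0.698, and the ER median -0.205 and -0.529. Such scaling shifts all genes above the floor by the same amount. It therefore could not change the order of these 3 medians or their distance from the median of all genes. Lower calls made up 55.5% of all calls as reported, 79.4% with the spike-ins and 95.1% with the older probe sets.

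**Figure D2:**
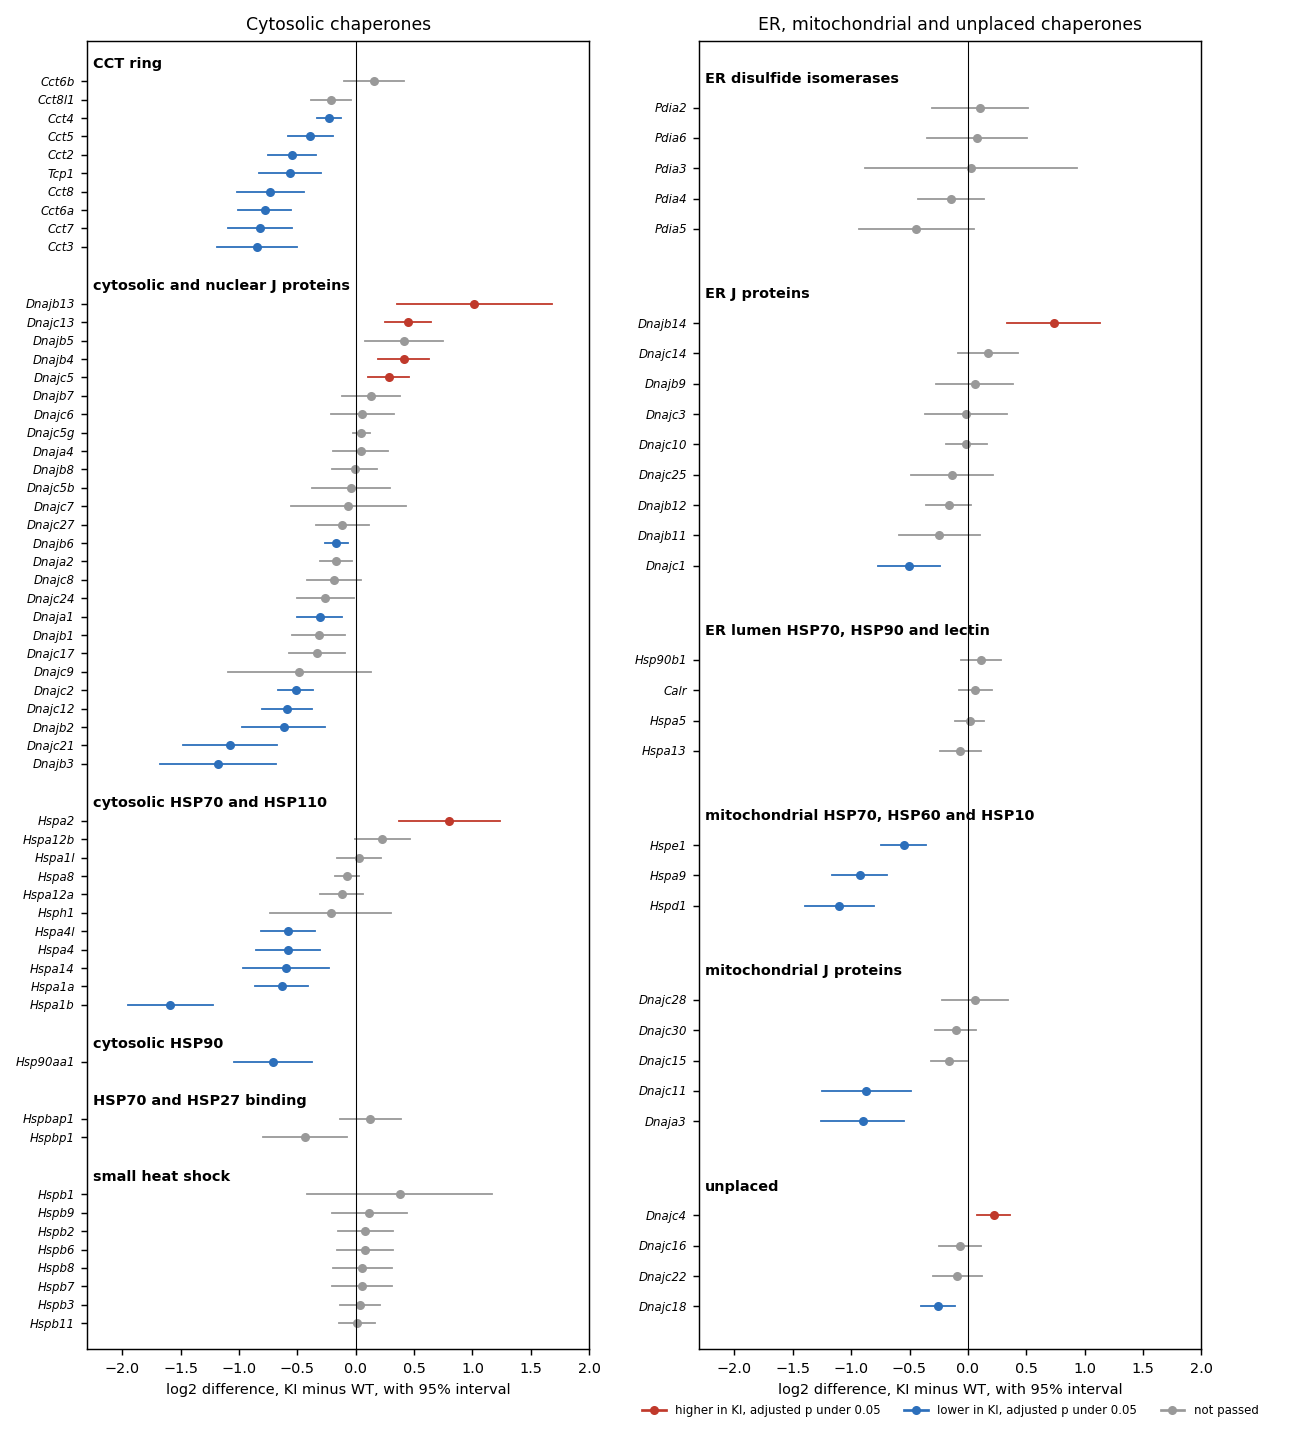
Log2 difference, KI minus WT, with its 95% interval (horizontal) for each of the 88 chaperone genes, ordered within families; red is higher in KI, blue is lower and grey did not pass. The 8 CCT subunits and the mitochondrial HSP60, HSP10 and HSP70 lie to the left of 0, and the ER HSP70, HSP90 and lectin genes have short intervals that include 0; under the older spike-in scaling the red Dnajc13, Dnajb4, Dnajc5 and Dnajc4 have negative differences.

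The stress-inducible cytosolic HSP70 had the largest difference of the chaperone genes. Hspa1b read 931, 1139 and 1186 on the WT arrays and 413, 308 and 363 on the KI arrays. Every KI array was below every WT array, and the mean was 3.01-fold higher in WT (log2 difference -1.59, SE 0.146, adjusted p = 0.00304). The other probe sets of the gene gave -1.62 each, and the call held with each array left out. Its neighbour Hspa1a, which codes for a nearly identical protein, read 203, 242 and 204 in WT and 140, 139 and 138 in KI (log2 difference -0.63, SE 0.0912, adjusted p = 0.00816). The transcripts of the pair are so alike that the array may not separate them, and which of the genes the signal came from is uncertain.

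The other cytosolic HSP70 genes did not move as a group. Hspa8, the constitutive HSC70, read 22026, 23944 and 23204 in WT and 21843, 22063 and 21643 in KI. The groups overlapped, and the difference was -0.08 with a 95% interval of -0.182 to 0.0282 (adjusted p = 0.247), which leaves out a fall as large as that of Hspa1a. A dimmer probe set of Hspa8 gave -1.31 and passed, while the 3 brighter sets gave -0.07 to -0.21 and did not. Hspa4 and Hspa4l, HSP110-type exchange factors, fell by 0.58 each, to 4509 ± 396 from 6753 ± 844 and to 854 ± 56.9 from 1277 ± 126 (mean intensity ± SD, n = 3; adjusted p = 0.0173 and 0.0109). The other 3 probe sets of Hspa4 gave 0.02, -0.04 and -0.18, and its call was lost without KI 1 (adjusted p = 0.0563) or without KI 3 (0.0672).

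Hspa14, which binds ribosomes, was lower by -0.60 (adjusted p = 0.0349), and the call was lost without any 1 of WT 2, WT 3, KI 1, KI 2 and KI 3 (0.0562 to 0.0975). Hsph1, the heat-inducible HSP110, had overlapping arrays and a wide interval (-0.22, interval -0.733 to 0.301). Hspa2, best known from testis, was higher at 0.80 (adjusted p = 0.0244) from a low level of 65.3, 74.1 and 99.7 in WT to 147, 124 and 140 in KI. Leaving out WT 2, KI 1, KI 2 or KI 3 ended that call (0.0519 to 0.0842). In all, 5 of the 11 HSP70 and HSP110 genes were lower and 1 was higher, against 14.9% and 11.9% of all genes, and of the 5 bright ones 3 were lower and 0 higher, against 27.1% and 22.2%.

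HSP90 and its helpers in the cytosol were lower where they passed. Hsp90aa1, the inducible cytosolic HSP90, read 13376, 14308 and 13496 in WT and 6858, 9775 and 8793 in KI. The groups did not overlap, KI 1 was the lowest array, and WT was 1.64-fold higher (log2 difference -0.71, SE 0.134, adjusted p = 0.0168). Its next probe sets gave -1.18 and -1.33, and the call was lost without WT 2 (adjusted p = 0.0551) or KI 3 (0.0568). The constitutive Hsp90ab1 had no single-gene probe set in the annotation and is not described.

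Heat shock factors and co-chaperones were read from a list of 22 genes outside the chaperone families described, all but Serpinh1, a collagen chaperone of the ER, known from the cytosol or nucleus. Of these, 0 were higher and 6 lower, or 27.3% against 14.9% of all genes, with a median of -0.26. By unadjusted p under 0.05 in limma 1 was higher and 11 were lower, against 3243 and 3856 of all 18193 genes. Among the 14 bright genes of the list 5 were lower, against 27.1% of all bright genes. Fkbp4, an immunophilin that binds HSP90, fell by 1.26 in log2 units (adjusted p = 0.0156), Cdc37, which brings kinases to HSP90, by 0.36 (0.00317), and Stip1, which bridges HSP70 and HSP90, by 0.79 (0.0215). The call of Fkbp4 was lost without KI 1 (0.05) or KI 3 (0.0596) and that of Stip1 without KI 3 (0.0638). Hsf1 had no single-gene probe set in the annotation used here.

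The CCT ring was lower in KI in every one of its 8 subunits, against 14.9% of all genes. All 8 were bright, and 27.1% of all bright genes were lower. The differences ran from -0.85 for Cct3 to -0.23 for Cct4, with a median of -0.65, and adjusted p-values lay between 0.00499 and 0.0185. Cct3 read 13266, 10735 and 10339 in WT and 5515, 7235 and 6341 in KI. WT 1 was the highest and KI 1 the lowest array, and no KI array reached the WT range. Cct7 read 11429, 9138 and 9383 in WT and 5199, 6156 and 5527 in KI (-0.82, SE 0.11, adjusted p = 0.00684). Cct6a read 14283, 13247 and 14343 in WT and 7234, 9055 and 8171 in KI (-0.78, SE 0.0906, adjusted p = 0.00499). In both genes the groups were apart and KI 1 was again lowest.

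The remaining subunits followed with smaller differences. Cct8 fell by 0.73 (adjusted p = 0.01), Tcp1, the alpha subunit, by 0.57 (0.0162), Cct2 by 0.55 (0.00874), Cct5 by 0.39 (0.0185) and Cct4 by 0.23 (0.0151). The groups did not overlap for any of the 8, while 24.7% of all genes and 2098 of the 5119 bright genes were lower in this sense. The interval of Cct4 (-0.331 to -0.125) lay wholly above that of Cct7 (-1.1 to -0.55), and the difference between subunits was not tested.

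The CCT calls depended on some arrays. Without KI 3, Cct3 (adjusted p = 0.0502), Cct4 (0.0568), Cct5 (0.0697) and Tcp1 (0.0629) no longer passed, with differences of -0.85, -0.24, -0.39 and -0.57, and without KI 1 Cct5 did not (0.0618). With the running number of the sample descriptions as a covariate, 4 of the 8 passed, and Cct2, Cct4, Cct5 and Tcp1 did not (0.0509 to 0.0818), with differences of -0.60, -0.26, -0.42 and -0.67. The related Cct6b and Cct8l1 were dim, with mean log2 intensities of 4.72 and 5.01, and did not pass. Prefoldin, which hands unfolded actin and tubulin to the ring, and the phosducin-like regulators of the ring made a list of 9 genes. Of these, 0 were higher and 4 lower, or 44.4% against 14.9% of all genes, with a median of -0.19. All 4 were among its 8 bright genes, and 27.1% of all bright genes were lower. By unadjusted p under 0.05 in limma, 0 of the list were higher and 5 lower, against 3243 and 3856 of all 18193 genes. Pfdn4 fell by 1.20 (SE 0.103, adjusted p = 0.00271), Pfdn2 by 0.77 (0.0103), Pfdn6 by 0.57 (0.0409) and Vbp1, also a prefoldin subunit, by 0.34 (0.0251). The calls of Pfdn4 and Pfdn2 held with each array left out, that of Pfdn6 did not with any, and that of Vbp1 was lost without WT 1, WT 3 or KI 3.

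**Figure D3:**
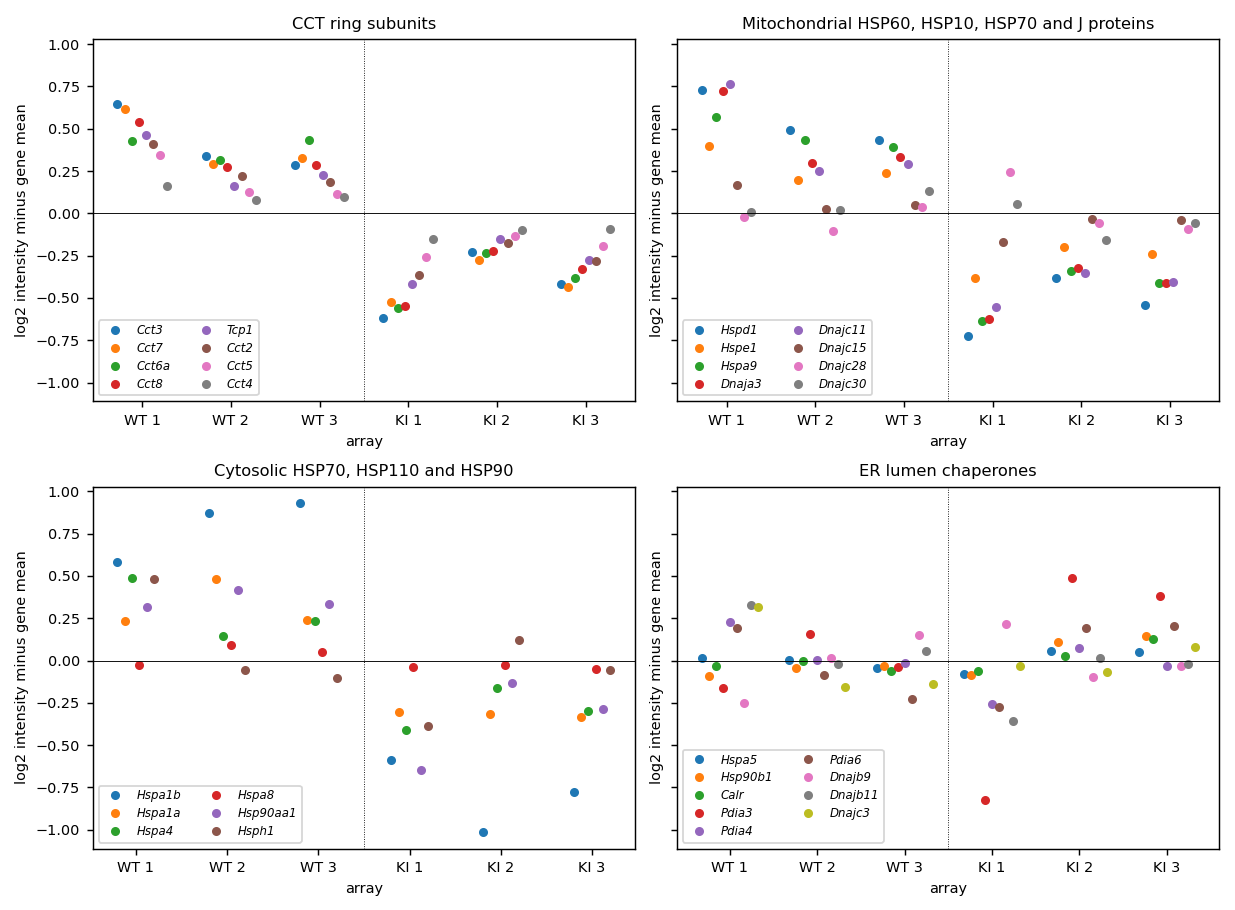
Log2 intensity of each gene minus its mean over the 6 arrays (vertical) on each array (horizontal), for 4 sets of chaperone genes; each point is 1 gene on 1 array. The 8 CCT subunits and the mitochondrial genes other than Dnajc28 and Dnajc30 lie above 0 on every WT array and below 0 on every KI array, whereas ER genes lie on both sides and Pdia3 is low on KI 1.

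The mitochondrial folding machinery was lower in KI in all 3 of its central genes, against 14.9% of all genes and 27.1% of bright ones. Hspd1, the HSP60 barrel, read 16337, 13825 and 13291 in WT and 5949, 7549 and 6758 in KI. The lowest WT array was above the highest KI array, and WT was 2.15-fold higher (log2 difference -1.10, SE 0.118, adjusted p = 0.0043). Hspe1, the HSP10 lid of that barrel whose promoter is printed above, read 13561, 11806 and 12142 in WT and 7897, 8973 and 8728 in KI (-0.55, SE 0.0765, adjusted p = 0.00749). Hspa9, the mitochondrial HSP70 mortalin, read 6344, 5764 and 5596 in WT and 2746, 3372 and 3207 in KI (-0.93, SE 0.0945, adjusted p = 0.00381). In both genes the groups were apart, and all 3 calls held with each array left out. With the replicate number as a block, 0 of the 3 passed. The intervals of Hspd1 (-1.4 to -0.807) and Hspe1 (-0.742 to -0.36) did not overlap, and the genes share most bases of their promoter windows.

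Mitochondrial J proteins divided. Dnaja3, the partner of Hspa9 in the matrix, fell by 0.90 (SE 0.143, adjusted p = 0.0104), from 2296 ± 390 to 1221 ± 129 (SD, n = 3). Dnajc11, a protein of the membrane complex that shapes cristae, fell by 0.87 (SE 0.153, adjusted p = 0.0138), from 1903 ± 394 to 1029 ± 73.1 (SD, n = 3), but not without KI 1 (0.0513) or KI 3 (0.0552). Dnajc15, which sits at the import motor, had arrays that did not overlap and an interval of -0.316 to -0.00669, and did not pass (-0.16, adjusted p = 0.115). Dnajc30 gave -0.11 and Dnajc28 0.06, both with overlapping arrays, and Dnajc30 passed under the spike-in scalings (-0.31 and -0.64), where the median of all genes was -0.199 and -0.515. Dnajc19 had no single-gene probe set.

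The wider mitochondrial import and protease list of 14 genes had 10 lower, or 71.4%, and 1 higher, with a median of -0.57, and among its 12 bright genes 9 were lower, against 27.1% of all bright genes. Tomm70a, an import receptor of the outer membrane, fell by 1.15 (SE 0.0914, adjusted p = 0.00228). Lonp1, the matrix protease, fell by 0.93 (0.00224), Pam16 of the import motor by 0.74 (0.00305), and Trap1, the mitochondrial HSP90, by 0.77 (0.00504). The gene that was higher was Hscb, a J protein of iron-sulfur cluster assembly (0.42, adjusted p = 0.0493), whose difference was -0.11 under the older spike-in scaling and whose call was lost with any single array left out. The calls of Tomm70a, Lonp1, Pam16 and Trap1 held with each array left out. With the replicate number as a block, 1 of the 14 genes was lower.

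The main chaperones of the ER lumen did not pass in either direction, and their intervals were narrow. Hspa5 read 14652, 14572 and 14075 in WT and 13732, 15066 and 15020 in KI. The groups overlapped, and the difference was 0.02 with an interval of -0.109 to 0.141 (adjusted p = 0.859). Hsp90b1 gave 0.11 (interval -0.0586 to 0.285) and Calr 0.06 (-0.0765 to 0.206). Without both arrays numbered 1, Hsp90b1 passed as higher (0.17, adjusted p = 0.0294), and Hspa5 and Calr did not pass. The promoters of these 3 genes are those printed above with ER stress elements. Their intervals leave out a change of 0.55 in either direction, the size of the fall of Hspe1. Each difference turned negative under both spike-in scalings, as the median of all genes did: Hspa5 was then -0.19 and -0.51, Hsp90b1 -0.09 and -0.42, and Calr -0.14 and -0.47.

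The disulfide isomerases also did not pass, with less precision. Pdia3, which works with calreticulin on glycoproteins, read 9005, 11217 and 9801 in WT and 5676, 14088 and 13092 in KI. KI 1 stood far below the other KI arrays, and the interval ran from -0.885 to 0.939, so a change of nearly 2-fold either way was not detectable with these arrays. Without KI 1 the difference of Pdia3 was 0.45, and it still did not pass (adjusted p = 0.0604). Pdia6 gave 0.08 (interval -0.35 to 0.51), or 0.35 and a call as higher without both arrays numbered 1 (adjusted p = 0.0288), and Pdia4 -0.14 (-0.425 to 0.137). Pdia5 read 499, 374 and 317 in WT and 262, 267 and 337 in KI, with overlap on KI 3 only (-0.44, adjusted p = 0.163).

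Among the 9 ER J proteins, Dnajc1 was lower and Dnajb14 higher, or 11.1% each, against 14.9% and 11.9% of all genes. Dnajc1, a membrane J protein that binds BiP, read 1206, 934 and 1093 in WT and 798, 743 and 726 in KI (-0.51, SE 0.106, adjusted p = 0.0222). Dnajb14, a tail-anchored J protein of the ER membrane, read 626, 772 and 879 in WT and 1457, 1125 and 1196 in KI (0.74, SE 0.159, adjusted p = 0.0242). The groups were apart in both. Dnajc1 lost its call without WT 3, KI 1, KI 2 or KI 3 (0.0542 to 0.0831) and Dnajb14 without WT 2, KI 1 or KI 3 (0.0644 to 0.0738). The lumenal J proteins known from the unfolded protein response gave -0.24 for Dnajb11 (interval -0.592 to 0.103), 0.06 for Dnajb9 (-0.276 to 0.39), -0.01 for Dnajc3 (-0.365 to 0.338) and -0.01 for Dnajc10 (-0.188 to 0.16). None of these 4 passed, and their arrays overlapped. Without both arrays numbered 1, Dnajc3 turned to 0.30 and passed as higher (adjusted p = 0.0354).

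Genes that act with the ER chaperones were read from lists of 22 folding partners and 12 sensors and factors of the unfolded protein response. Of the partners, 0 were higher and 4 lower, or 18.2% against 14.9% of all genes, with a median of -0.07. By unadjusted p under 0.05 in limma 1 was higher and 7 were lower, against 3243 and 3856 of all 18193 genes. Among the 18 bright partners 3 were lower, a smaller share than the 27.1% of all bright genes. The lower ones were led by Ero1a, the oxidase that recharges the disulfide isomerases, at -0.996 (SE 0.0896, adjusted p = 0.00289), and included Calr3, a calreticulin relative, at -0.97 (0.0208), Sec63, a J protein of the translocation channel, at -0.52 (0.0304), and Ero1b at -0.32 (0.0407). Only the call of Ero1a held with each array left out: Ero1b lost its call with any single array left out, Calr3 without WT 2, KI 1 or KI 3, and Sec63 without WT 2, WT 3, KI 1 or KI 3. Canx, the membrane lectin calnexin, gave 0.08 (interval -0.0201 to 0.176) and P4hb, the founding disulfide isomerase, -0.05 (-0.144 to 0.0391). Hyou1, the ER HSP110, was -0.45 with arrays that did not overlap and an adjusted p of 0.0589.

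Of the 12 genes of the unfolded protein response, 0 were higher and 4 lower, or 33.3% against 14.9% of all genes, with a median of -0.08. Among the 11 bright ones 3 were lower, a share near the 27.1% of all bright genes. By unadjusted p under 0.05 in limma, 0 of the 12 were higher and 4 lower, against 3243 and 3856 of all 18193 genes. The 4 lower genes were Atf4, Trib3, Ppp1r15a and Herpud1, the last a factor of ER-associated degradation. Atf4 codes for the factor that gives the branch its name and read 13481, 10009 and 9317 in WT and 5422, 6538 and 6425 in KI. No KI array reached the WT range, and the difference was -0.82 (SE 0.159, adjusted p = 0.0179). Trib3, a target of ATF4, fell by 1.01 (SE 0.145, adjusted p = 0.00812) and Ppp1r15a, a phosphatase subunit of the same branch, by 0.63 (0.0311), while Herpud1 fell by 0.29 (0.0494). The call of Trib3 held with each array left out, that of Atf4 was lost without KI 1 (0.0592) or KI 3 (0.0604), that of Ppp1r15a without WT 2, WT 3, KI 2 or KI 3, and that of Herpud1 with any array but KI 1 left out. Xbp1 gave -0.01 (interval -0.148 to 0.133), Atf6 0.09 (-0.0823 to 0.27) and Ddit3 -0.08 (-0.374 to 0.218), and their arrays overlapped; Atf6 was -0.25 when all its probe sets were averaged (adjusted p = 0.0486).

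Cytosolic and nuclear J proteins had calls in both directions, 7 lower and 4 higher of 26, or 26.9% and 15.4% against 14.9% and 11.9% of all genes. Among the 13 bright ones 5 were lower and 2 higher, against 27.1% and 22.2% of all bright genes. Dnajc21, which acts in ribosome assembly, read 2340, 1565 and 1772 in WT and 825, 964 and 869 in KI. Its groups were apart and WT was 2.11-fold higher (-1.08, SE 0.16, adjusted p = 0.00893). Dnajc2, a ribosome-bound J protein, fell by 0.52 (SE 0.0591, adjusted p = 0.00489) and Dnajc12 by 0.59 (0.00825), and these calls held with each array left out. Dnajb3, at a mean log2 intensity of 5.96, fell by 1.18 (0.0122), though not without KI 3 (0.0514), and Dnajb2 by 0.62 (0.0288), which was lost without WT 2, WT 3, KI 1, KI 2 or KI 3.

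The J proteins best known as partners of HSC70 had small negative differences. Dnaja1 read 9131, 8040 and 7875 in WT and 6279, 6808 and 7090 in KI (-0.31, SE 0.078, adjusted p = 0.0364), with no overlap, and its call was lost with any single array left out (0.0524 to 0.0982). Dnajb1, the inducible HSP40, gave -0.32 (interval -0.544 to -0.0945, adjusted p = 0.0511) and Dnaja2 -0.17 (-0.306 to -0.0326, 0.0747). Both had arrays that did not overlap and did not pass. Dnajb6, a suppressor of aggregation, was lower at -0.17 (adjusted p = 0.0329), lost without WT 2, WT 3, KI 1, KI 2 or KI 3, and 1 of its 4 probe sets was higher at 0.31.

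The 4 cytosolic J proteins that were higher were led by Dnajc13. This protein, which works on endosomes, read 2198, 2154 and 2293 in WT and 3377, 2839 and 2882 in KI. The KI arrays were all above WT, with KI 1 highest (0.45, SE 0.0797, adjusted p = 0.0141), and the call held with each array left out. Dnajc5, the vesicle protein CSP-alpha, was 0.28 (adjusted p = 0.0375), Dnajb4 0.41 (0.0232) and Dnajb13, a dim gene known from sperm and cilia, 1.01 (0.0415). Outside this group the gene Dnajc4, placed in no compartment, was 0.22 (0.0399), and Dnajc18 was lower at -0.25 (0.0295).

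Most of these calls depended on single arrays. Dnajb13, Dnajc4 and Dnajc18 lost theirs with any single array left out (0.0531 to 0.107), Dnajc5 with any but KI 2 (0.0691 to 0.12) and Dnajb4 with any but WT 1 (0.0527 to 0.0824). Relative to the older spike-in probe sets, Dnajc13 (-0.08), Dnajb4 (-0.12), Dnajc5 (-0.25) and Dnajc4 (-0.31) had negative differences while the median of all genes was -0.515. The count of higher chaperone genes went from 7 to 4 without WT 1, 1 without WT 2, 3 without WT 3, 1 without KI 1, 3 without KI 2 and 1 without KI 3. The count of lower genes went from 28 to 14 without KI 3 and stayed at 19 or more without any other array.

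Small heat shock proteins, which hold unfolding proteins without ATP, gave no call, while 26.8% of all genes were called. Of the 8, 0 passed, 0 had an unadjusted p under 0.05 in limma, and the differences lay between 0.01 and 0.38. Of these genes 7 had a mean log2 intensity under 10. Hspb2, Hspb3, Hspb7, Hspb8 and Hspb9 read 4.42 to 5.90, near the floor, where a missing call does not show an unchanged level. Hspb1, known as HSP25 in the mouse, read 476, 333 and 248 in WT and 517, 312 and 533 in KI, with wide overlap (0.38, interval -0.414 to 1.17). The collagen gene Col1a2, a marker of stromal cells, read 5768, 3602 and 1638 in WT and 6867, 1726 and 5756 in KI, so that both genes had their lower values on the same arrays. The part of stromal cells in the Hspb1 values was not tested. Serpinh1, named above, was also lower on those arrays, at 658, 437 and 202 in WT and 956, 198 and 807 in KI, and did not pass. The stromal markers summed to 2810 to 8980 in WT and 2800 to 10500 in KI, and 0 of 8 passed.

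The calls of probe sets rarely opposed each other within a gene. The 88 genes had 212 probe sets, of which 59 were lower and 9 higher, while 10.5% of all probe sets were lower and 8.18% higher. Of the 56 genes with more than 1, only Dnajb6 and Dnajc5 had calls in both directions, and a gene with only 1 passing set could not. Estimates of both signs were more common. Dnajc18, lower at -0.25, had a second set at 0.18 that did not pass. For Dnajc5 3 probe sets were higher and the dimmest was lower at -0.39. Among CCT genes the bright probe sets gave similar values, -0.83 to -1.03 for the 4 brightest of Cct3 and -0.23 to -0.36 for the 3 brightest of Cct4, while the 3 dimmest sets of Cct3 gave -0.06 to -0.41 and the 4 dimmest of Cct4 -0.18 to -0.96.

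**Figure D4:**
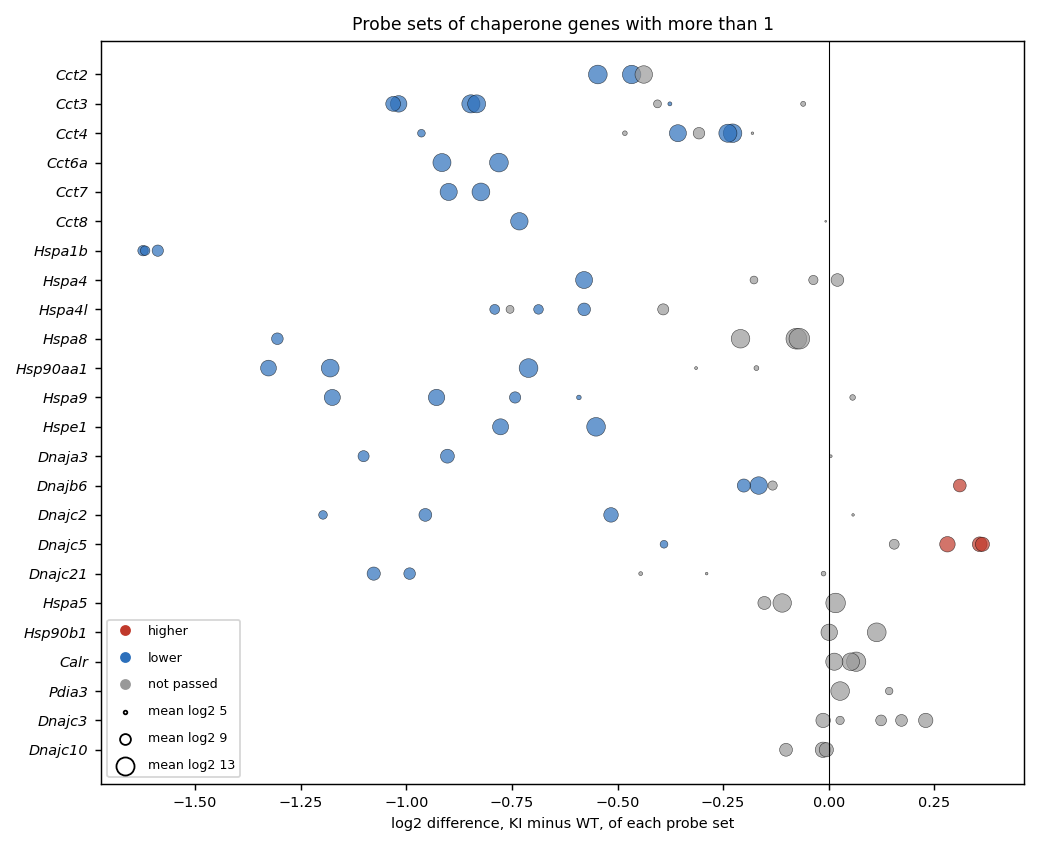
Log2 difference, KI minus WT (horizontal), of each probe set of 24 chaperone genes with more than 1 probe set; the area of a point rises with its mean log2 intensity, and colours mark the call. The bright probe sets of the CCT, Hspa9 and Hspe1 genes lie left of 0, those of Hspa5, Hsp90b1 and Calr lie between -0.15 and 0.11, and Hspa4 and Hspa8 have probe sets with calls that differ.

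The compartment medians were compared under the other processing choices. The median of the 8 CCT subunits stayed between -1.18 and -0.39 and that of the mitochondrial group between -1.24 and -0.469 in all of them. The ER median lay between -0.529 and 0.0633, and its sign changed between settings. Leaving out the probe sets whose identifiers mark a match to several transcripts gave the smallest CCT and mitochondrial medians. There 5 of the 8 subunits passed, and Cct2 had no probe set left and is not in that median. Cct3, Cct8 and Hspa4l then lost their calls and Dnaja3 read 0.0047 (adjusted p = 0.998), each from a dimmer probe set. When the running number of the sample descriptions was added as a covariate, 13 chaperone genes were lower and 1 was higher, and the ER median of -0.159 lay nearer to the cytosolic median of -0.192 than to that of all genes, -0.0192. With the replicate number as a block, the medians were those reported and 0 chaperone genes passed in either direction. Over the choices tried, the difference of Hspd1 lay between -1.63 and -0.92, that of Hspe1 between -1.08 and -0.44 and that of Hspa9 between -1.46 and -0.68.

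**Figure D5:**
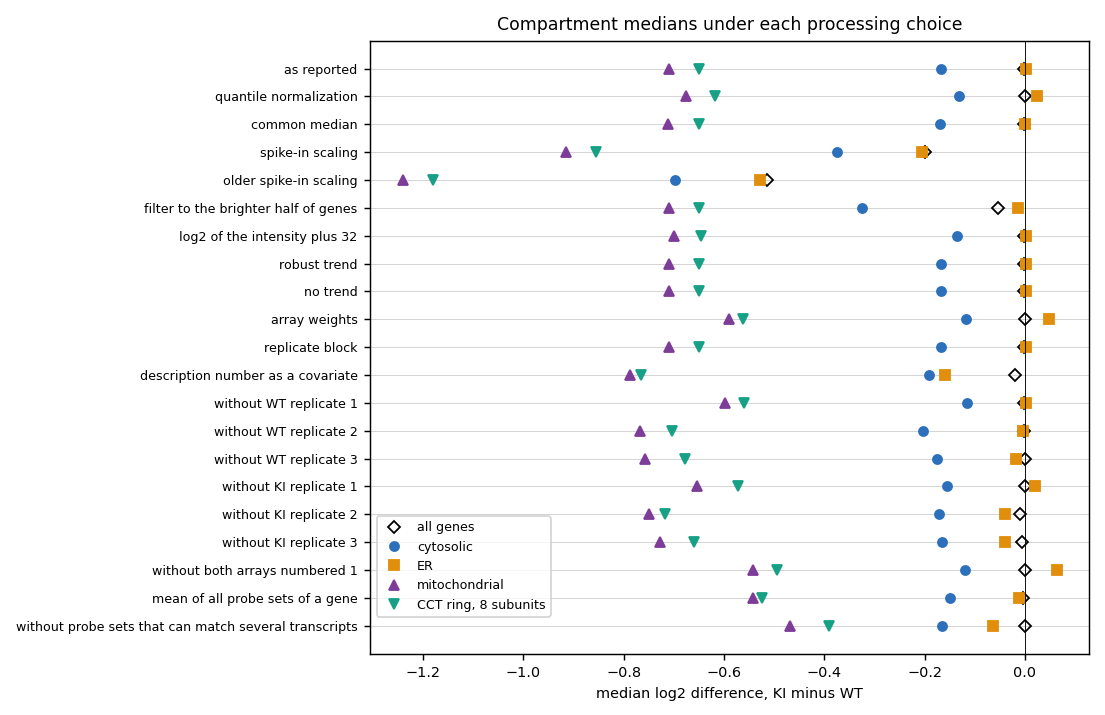
Median log2 difference, KI minus WT (horizontal), of all genes and of 4 chaperone groups under each processing choice (vertical). The mitochondrial and CCT medians lie left of the median of all genes in every setting, whereas the ER median changes sign with the setting, is -0.529 under the older spike-in scaling beside -0.515 for all genes, and stands apart from all genes with the description number as a covariate (-0.159 against -0.0192).

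The promoter letters were set beside the calls as a description. The letters GAANNTTC were present in 7 of the 21 lower genes that had a promoter entry, in 0 of the 6 higher genes and in 6 of the 47 that did not pass. The 7 were Cct2, Dnaja1, Dnajb6, Hspa1a, Hspa1b, Hspd1 and Hspe1, of which the last pair share their bases and Hspa1a and Hspa1b are near copies. The lower genes Cct3, Cct6a, Cct7, Cct8 and Tcp1 held none of the heat shock letters searched. Genes with GAANNTTC that did not pass included Hspb1, Hspb3, Hspb6 and Dnaja4. The other order, TTCNNGAA, was present in 4 of the 21 lower genes and in 2 of the 47 that did not pass. It was also present in 1 of the 6 higher genes, Dnajb4. The ER stress element was in 5 promoters, and 0 of these genes passed in limma in either direction or had an unadjusted p under 0.05; Hsp90b1, Pdia6 and Dnajc3 passed as higher without both arrays numbered 1. The CCAAT box, CCAAT, which the ER stress element contains, was in 31 of 74 chaperone promoters and in 39.4% of those of array genes, and the E-box CACGTG in 8 of 74 against 8.74%.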

How the data were processed

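Expression was measured once on each of 6 arrays. Per the submitters' processing notes, the deposited intensity values were made with Affymetrix Expression Console, and its version, algorithm and normalization were not given in the sources used here. Each probe set has 1 linear intensity value per array in the deposited table, and the even medians show values already on 1 scale. Detection calls were not used here. Of 45101 probe sets, 64 controls were left out, 34945 had 1 gene symbol in the platform annotation, 932 had several and 9160 had none.

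Intensities were floored at 16 (5.47% of values lay below) and log2 transformed, with the brightest single-gene probe set for each of 18193 genes and no filter. KI was compared with WT in limma 3.58.1 (R 4.3.3, lmFit and eBayes with an intensity trend), with Benjamini-Hochberg adjustment over all genes, a threshold of 0.05 and 95% intervals. Probe sets were fitted apart in the same way. With 3 against 3 arrays an exact permutation test of a single value cannot go below 0.1, so none was used, and the number of arrays limits the precision. The fit was tested on simulated data. Alternatives changed the normalization, scaling, filter, floor, variance prior, weights, covariates, arrays and probe sets.

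The members, compartments and gene lists were chosen with earlier results of these data known. Named are up to 5 passing members of each family, a fixed set of well-known members, up to 3 passing genes of each partner list in each direction, and every other passing member. Dnajc28, Dnajc30, Cct6b, Cct8l1, Herpud1, Ero1b, Pfdn6, Col1a2, Serpinh1 and the marker genes named were taken after their values were seen. Promoters came from RefSeq (GRCm38.p6).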

Additional observations from a re-analysis of the deposited data

How the results depend on the processing

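Of the results for named genes under the alternatives, 1370 kept direction and side of the threshold, 241 lost the threshold in the same direction, 41 gained it and 8 changed sign with a call before or after. Chaperone genes higher in KI (7) numbered 3 with spike-in scaling, 0 with the older spike-in scaling, 0 with the replicate block, 1 with the description number as a covariate, 4 with the mean of probe sets, and 1 to 4 with an array left out. Cytosolic genes higher (5) numbered 2, 0, 0, 1 and 3 in the same order, 2 without both arrays numbered 1, and 1 to 3 with an array left out. ER genes higher (1) numbered 0 with the older scaling, the block, the covariate and the mean of probe sets, 2 with array weights, 4 without both arrays numbered 1, and 0 to 1 with an array left out. Chaperone genes lower (28) numbered 53 with the older scaling, 0 with the block, 13 with the covariate and 14 to 27 with an array left out; cytosolic genes lower (21) numbered 39, 0, 10 and 10 to 21. ER genes lower (1) numbered 2 with spike-in scaling, 6 with the older scaling, 0 with the block, 0 with the covariate and 0 to 1 with an array left out, and mitochondrial genes lower (5) numbered 0 with the block, 3 with the covariate and 4 to 5 with an array left out. Over all genes, those higher (2164) numbered 1284 and 421 with the scalings, 146 with the block, 707 with the covariate and 887 to 1999 with an array left out, and those lower (2704) numbered 4961, 8186, 198, 964 and 1115 to 2381. Among called values, signs changed for Atf6 (-0.25, mean of probe sets), Dnaja3 (0.0047, probe sets of several transcripts left out), Dnajc3 (0.30, without both arrays numbered 1, adjusted p = 0.0354 in limma), and, with the older scaling, Dnajb4 (-0.12), Dnajc13 (-0.081), Dnajc4 (-0.31), Dnajc5 (-0.25) and Hscb (-0.11). The labels do not say whether the replicate numbers pair the samples. The deviations of arrays with the same number correlated at -0.365, -0.261 and -0.266. These values cannot settle the pairing, because deviations from the mean of 3 arrays are linked to each other. Under the block the differences were those reported (mitochondrial median -0.71) while 0 chaperone genes passed in limma, with 8 higher and 31 lower by unadjusted p under 0.05. The cause of these changes was not tested. Detection calls were not used, so no bound is given for dim genes such as Cct6b and Cct8l1, and every value rests on 6 arrays.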
